A study of Sus scrofa with 12 samples.

Results

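The neuromuscular junction is the synapse between a motor neuron and a muscle fibre, and the genes described here encode its acetylcholine receptor, the proteins that gather the receptor under the nerve ending, and the enzyme that ends each signal. Of 10 such genes looked up by symbol, 8 were present in the table of 23271 genes: the receptor subunit genes CHRNA1, CHRNB1, CHRND and CHRNE, the clustering genes MUSK and LRP4, and the acetylcholinesterase genes ACHE and COLQ. RAPSN was not analysed here. No row carried the symbol DOK7, but 1 row without a symbol (ENSSSCG00000008702) was described in the deposited table as docking protein 7 and typed there as a pseudogene, and its values are given beside the 8 members without being counted among them.

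The members were measured by RNA sequencing of longissimus dorsi, a back muscle, in 6 libraries of Laiwu pigs, a Chinese breed known for fatty muscle, and 6 of Yorkshire pigs, a lean Western breed. The animals were described as equal in weight. The labels used here state no treatment, age or sex, and they do not say that the libraries were made from different animals, which means that the p-values here cover only the spread among these samples. Libraries held 54961358 to 67285809 counts. Of 6 skeletal muscle markers listed, 4 were found, namely ACTA1, CKM, DES and RYR1, and their summed level was 44038 to 61595 FPKM in Laiwu and 46635 to 62935 FPKM in Yorkshire, with none of them at 0 in any library. FPKM is the count of a gene scaled by its length and by the total of its library.

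Acetylcholine released by the nerve opens the receptor, a ring of subunits that in adult muscle holds the alpha 1, beta 1, delta and epsilon chains. A gamma chain, encoded by CHRNG, stands in place of epsilon before birth and after loss of the nerve. The nerve's agrin binds LRP4, which activates the kinase MuSK and its adaptor DOK7 and so holds the receptors in place. The few nuclei under the nerve ending transcribe these genes far more strongly than the rest of the fibre, so whole muscle RNA contains little of most of them.

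No member passed the test of a difference in level between Laiwu and Yorkshire muscle. Fitted fold changes were lowest for CHRND (-1.88 on the log2 scale), COLQ (-1.44) and CHRNE (-1.35), with ACHE, CHRNA1 and MUSK also below 0, while CHRNB1 and LRP4 had values of 0.06 and 0.29. Of the 8 members, 6 reached the mean level set for testing, 0.5 FPKM over all 12 libraries, and CHRND, at a mean of 0.490 FPKM, and COLQ, at 0.1002 FPKM, fell under that minimum. Among the 6 tested, the quasi-likelihood test of edgeR (Benjamini-Hochberg adjusted p under 0.05) called 0 higher and 0 lower in Laiwu, as it called 0 of all 11205 tested genes (0%). At an unadjusted p under 0.05 stood 1 of the 6 members, CHRNE, against 498 of 11205 genes (4.44%). Over all genes limma called 0, with 391 at an unadjusted p under 0.05, and DESeq2 called 1, which was no member, with 569. Fitted log2 fold changes were above 0 for 2 of the 6 members and below 0 for 4, with a median of -0.50, where all tested genes had 5573 above, 5632 below and a median of -0.001. Leaving out 1 library at a time, the members' median ran from -0.91 without Laiwu 5 to -0.15 without Yorkshire 3. With the slow fibre score, described further on, as a covariate it was -0.19. Of the 12 slow fibre genes of that score 11 had a fitted fold change below 0, with a median of -0.53 and 0 past the edgeR test. No member separated the breeds completely, which 20 of the tested genes did (0.178%).

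**Figure D1:**
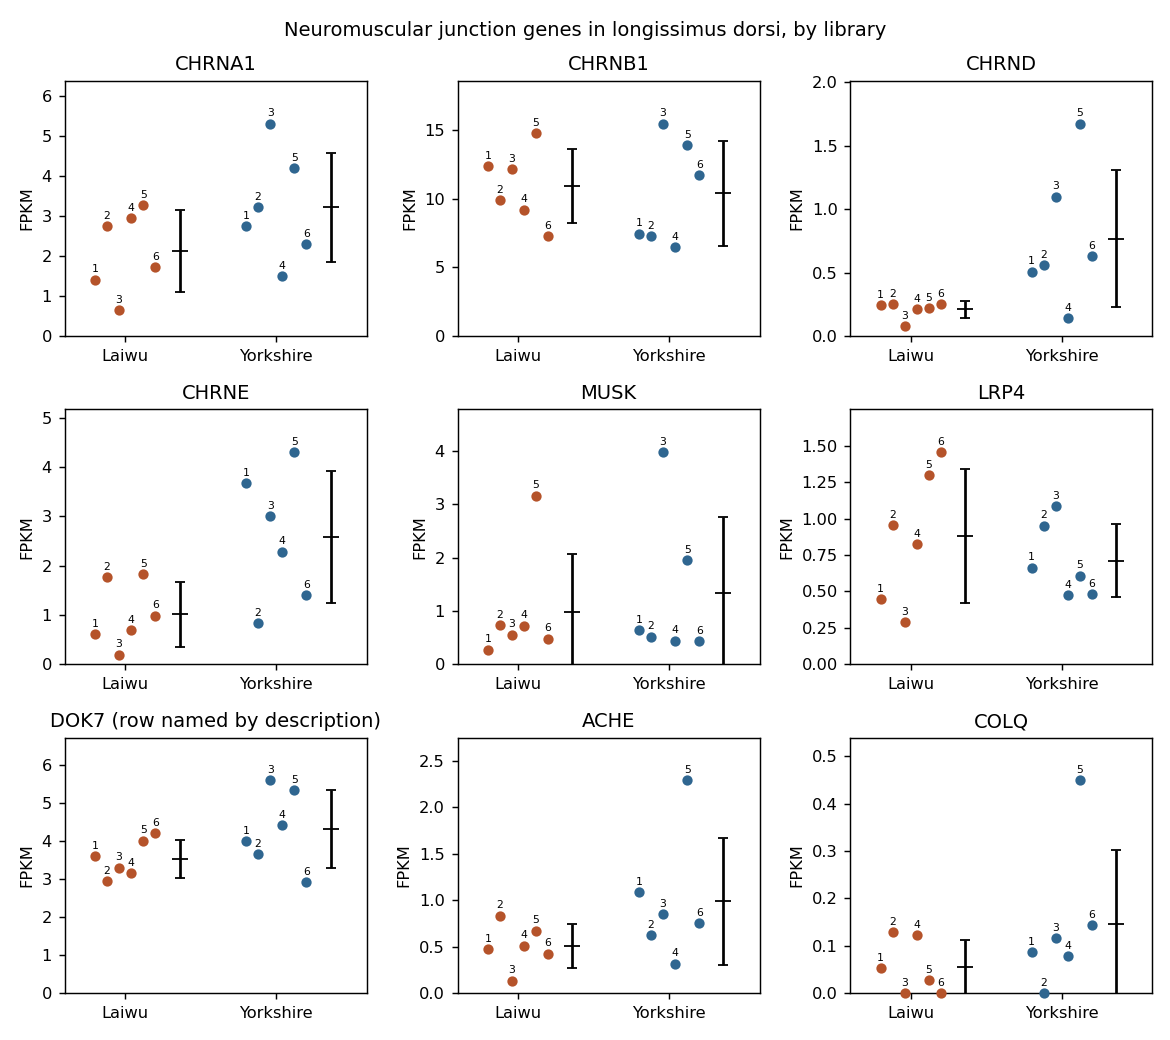
FPKM of each gene in each of the 6 Laiwu and 6 Yorkshire libraries (points, numbered by library), with the mean and SD of each breed at the right of its points. SD bars that would pass below 0 end at the axis. CHRND was at 0.254 FPKM or less in all Laiwu libraries and above that in 5 of 6 Yorkshire libraries, and MUSK was far higher in Laiwu 5, Yorkshire 3 and Yorkshire 5 than elsewhere.

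**Figure D2:**
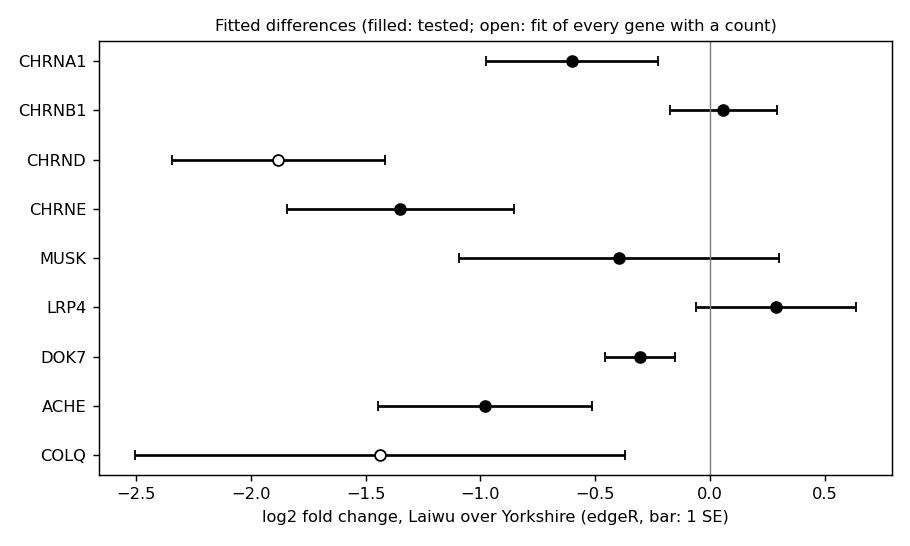
Fitted log2 fold change of each gene, Laiwu over Yorkshire, by edgeR, with bars of 1 SE. Filled points are genes in the test of 11205 genes and open points, CHRND and COLQ, come from the fit of all 23271 genes. No gene passed the test, and CHRND (-1.88) and CHRNE (-1.35) lay farthest from 0 relative to their SE.

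CHRNE encodes the epsilon subunit, the one that marks the adult receptor (ENSSSCG00000017909; Sscrofa11.1 chromosome 12, 52011250 to 52016299, plus strand). Its level in Laiwu was 0.201 FPKM at the lowest, 0.844 at the median and 1.83 at the highest, and in Yorkshire 0.834 at the lowest, 2.65 at the median and 4.31 at the highest. Thus 3 Laiwu libraries lay below every Yorkshire library and 4 Yorkshire libraries lay above every Laiwu library. The means were 1.02 ± 0.658 FPKM in Laiwu against 2.59 ± 1.33 FPKM in Yorkshire (SD over 6 libraries), a log2 fold change of -1.35 ± 0.50 (SE) with an edgeR unadjusted p of 0.0174 and an adjusted p of 0.912. With the slow fibre score as a covariate, it was -0.83 ± 0.45. CHRNE overlaps C17orf107 on the opposite strand over 2112 bases and touches MINK1 by 1 base. C17orf107 averaged 0.208 FPKM, and with no statement of whether reads were assigned by strand, those of CHRNE and C17orf107 may not be told apart.

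CHRND encodes the delta subunit (ENSSSCG00000057051; chromosome 15, 133040340 to 133048829, plus strand). Laiwu libraries had 0.07996 FPKM at the lowest, 0.233 at the median and 0.254 at the highest, and Yorkshire libraries 0.140 at the lowest, 0.594 at the median and 1.68 at the highest. All Yorkshire libraries except Yorkshire 4 stood above all 6 Laiwu libraries. Behind these levels were 14 to 44 counts per library in Laiwu and 24 to 283 in Yorkshire. The means were 0.210 ± 0.0664 FPKM in Laiwu against 0.769 ± 0.540 FPKM in Yorkshire (SD over 6 libraries). In an edgeR fit of all 23271 genes with a count, which had no minimum level, the log2 fold change of CHRND was -1.88 ± 0.46 (SE), with an unadjusted p of 0.000802 and an adjusted p of 0.499. That fit called 0 genes (0%) and had 1715 (7.37%) at an unadjusted p under 0.05. The direction of CHRND held in each setting that kept the gene and with each library left out, where the fold change ran from -2.11 without Yorkshire 4 to -1.44 without Yorkshire 5, and over the settings other than the left-out libraries its adjusted p was 0.497 to 0.974.

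CHRNA1 encodes the alpha 1 subunit, which carries the acetylcholine binding sites and is present as a pair in each receptor (ENSSSCG00000015969; chromosome 15, 80673067 to 80692208, minus strand). Levels in Laiwu were 0.649 FPKM at the lowest, 2.24 at the median and 3.26 at the highest, and in Yorkshire 1.51 at the lowest, 2.98 at the median and 5.31 at the highest. The breeds overlapped over most of this range, with 2 Laiwu libraries below all of Yorkshire and 2 Yorkshire libraries above all of Laiwu. The log2 fold change was -0.60 ± 0.37 (SE), with an edgeR adjusted p of 0.912.

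CHRNB1, the gene of the beta 1 subunit, was the most abundant member (ENSSSCG00000056826; chromosome 12, 52749473 to 52758488, plus strand). It was at 7.25 FPKM at the lowest, 10.998 at the median and 14.7 at the highest in Laiwu, and at 6.49 FPKM at the lowest, 9.59 at the median and 15.5 at the highest in Yorkshire. The breeds overlapped almost fully, with means of 10.9 ± 2.67 FPKM in Laiwu against 10.4 ± 3.84 FPKM in Yorkshire (SD over 6 libraries). Its log2 fold change of 0.06 ± 0.23 (SE) had an edgeR adjusted p of 0.978 and lay below 0 when Laiwu 5, Yorkshire 1, Yorkshire 2 or Yorkshire 4 was left out, down to -0.054.

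Levels per length can be set against each other within a library, so the other subunits were expressed relative to CHRNA1. The ratio of CHRND to CHRNA1 had a median of 0.108 in Laiwu (0.0675 to 0.174) and 0.196 in Yorkshire (0.0933 to 0.399), with all Yorkshire libraries except Yorkshire 4 above all of Laiwu. The ratio of CHRNE to CHRNA1 had a median of 0.498 in Laiwu (0.236 to 0.646) and 0.820 in Yorkshire (0.259 to 1.52), and 3 Yorkshire libraries lay above all of Laiwu. The ratio of CHRNB1 to CHRNA1 had a median of 4.36 in Laiwu (3.12 to 18.7) and 3.11 in Yorkshire (2.26 to 5.13), and its highest value was that of Laiwu 3, where CHRNA1 was at its lowest. Differences in mean log2 ratio, Laiwu minus Yorkshire, were -0.94 for CHRND, -0.81 for CHRNE and 0.79 for CHRNB1, the last of which was 0.45 without Laiwu 3. Exact permutation tests over libraries, two-sided, gave p = 0.0281, 0.104 and 0.0952 in that order, and 0.0844, 0.104 and 0.104 after Benjamini-Hochberg adjustment over the 3 ratios. The ratios of CHRND and CHRNB1 were chosen after their levels were seen. The adjusted p was 0.0130 for CHRND without Yorkshire 4 and 0.0422 for CHRNE without Yorkshire 2, the Yorkshire library in which each ratio was lowest. Leaving out the library that most opposes a difference favours a low p, so nothing is drawn from these values. With any other library left out, the adjusted p was 0.0714 to 0.104 for CHRND and 0.0952 to 0.217 for CHRNE. Each such adjustment kept the p of the other ratios from all 12 libraries.

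**Figure D3:**
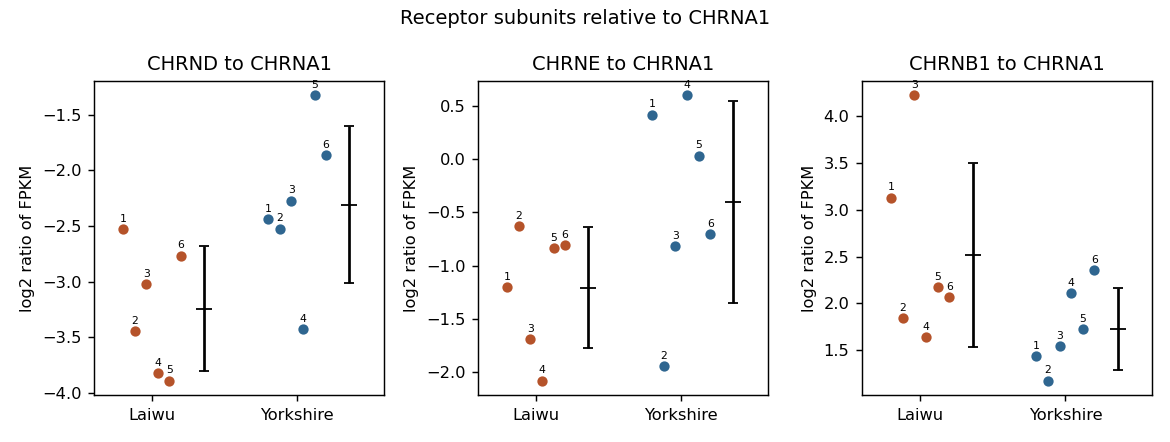
Log2 ratio of the FPKM of CHRND, CHRNE and CHRNB1 to that of CHRNA1 in each library (points, numbered by library), with the mean and SD of each breed. The CHRND ratio lay higher in 5 of 6 Yorkshire libraries than in all Laiwu libraries, and the other ratios overlapped more.

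The fetal gamma subunit gene CHRNG, not a member, was low in both breeds, at 0 to 0.646 FPKM in Laiwu and 0.127 to 0.449 FPKM in Yorkshire. It had no count in Laiwu 5 and Laiwu 6, which allows up to 3 counts, or 0.0232 and 0.0274 FPKM, a limit that covers counting error only. Relative to CHRNE it reached 1.25 in Laiwu 3 and 0.926 in Laiwu 4, was 0.315 in Laiwu 1 and 0.115 in Laiwu 2, and was 0 in the other 2, while in Yorkshire it ran from 0.0607 to 0.279. With libraries at 0 the ratio was not tested. Laiwu 3 and Laiwu 4 thus had about as much CHRNG as CHRNE per length, and the Yorkshire libraries had less CHRNG than CHRNE in each case. Few counts stood behind this, 32 of CHRNG and 29 of CHRNE in Laiwu 3, and 83 and 101 in Laiwu 4. CHRNG in Laiwu 3, at 0.251 FPKM, lay inside the Yorkshire range, while CHRNE there was at its lowest of all libraries, 0.201 FPKM. CHRNG in Laiwu 4, at 0.646 FPKM, lay above the Yorkshire range.

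MUSK encodes the muscle-specific receptor kinase at the centre of junction formation (ENSSSCG00000005456; chromosome 1, 251650710 to 251751908, plus strand). It was at 3.16 FPKM in Laiwu 5 and between 0.277 and 0.731 FPKM in the other 5 Laiwu libraries, and at 3.98 FPKM in Yorkshire 3, 1.95 FPKM in Yorkshire 5 and between 0.435 and 0.636 FPKM in the other 4 Yorkshire libraries. The high libraries came from both breeds, and the remaining libraries of the breeds overlapped. The means were 0.989 ± 1.08 FPKM in Laiwu against 1.33 ± 1.42 FPKM in Yorkshire (SD over 6 libraries). The log2 fold change was -0.40 ± 0.70 (SE), with an edgeR adjusted p of 0.95, and it was 0.23 without Yorkshire 3 and -1.22 without Laiwu 5.

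LRP4 encodes the agrin receptor that binds MuSK (ENSSSCG00000013248; chromosome 2, 15616131 to 15672874, plus strand). It was at 0.291 FPKM at the lowest, 0.891 at the median and 1.46 at the highest in Laiwu, and at 0.476 at the lowest, 0.636 at the median and 1.08 at the highest in Yorkshire. The Laiwu libraries spanned the whole Yorkshire range, with 2 below it and 2 above it. The log2 fold change was 0.29 ± 0.35 (SE), with an edgeR adjusted p of 0.92, and 0.10 without Laiwu 6. The row described as docking protein 7 (chromosome 8, 2089765 to 2111953, plus strand) varied little, at 2.95 to 4.21 FPKM in Laiwu and 2.92 to 5.60 FPKM in Yorkshire. Its log2 fold change was -0.30 ± 0.15, with an edgeR adjusted p of 0.912.

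ACHE encodes acetylcholinesterase, which breaks down the transmitter (ENSSSCG00000030303; chromosome 3, 8732441 to 8738278, minus strand). It was at 0.133 FPKM at the lowest, 0.490 at the median and 0.833 at the highest in Laiwu, and at 0.316 at the lowest, 0.802 at the median and 2.29 at the highest in Yorkshire. Laiwu 3 lay below and 3 Yorkshire libraries lay above the range of the other breed. The log2 fold change was -0.98 ± 0.47 (SE), with an edgeR adjusted p of 0.912, and -0.50 without Yorkshire 5. Yorkshire 5 was also the library whose deviations from its breed followed gene length most closely (Spearman's rho over genes -0.42, against -0.15 to 0.23 in the other 11). A negative rho means that shorter genes stood higher there. Yorkshire 5 was the highest library for CHRND, CHRNE and COLQ as well as for ACHE. Without it the log2 fold change was -1.44 for CHRND and -1.11 for CHRNE. The part of gene length in these values, and in the ratios to CHRNA1, was not tested.

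COLQ encodes the collagen-like tail that anchors the enzyme in the synaptic basal lamina (ENSSSCG00000028911; chromosome 13, 2677740 to 2755307, minus strand). It was close to the limit of detection. Laiwu libraries had 12, 27, 0, 26, 6 and 0 counts in order of their number, and Yorkshire libraries had 19, 0, 21, 17, 93 and 33. A count of 0 allows up to 0.0139 FPKM in Laiwu 3, 0.0162 in Laiwu 6 and 0.0159 in Yorkshire 2. The highest level was 0.128 FPKM in Laiwu and 0.449 FPKM in Yorkshire, that of Yorkshire 5. In the fit of all genes the log2 fold change was -1.44 ± 1.07 (SE), with an edgeR adjusted p of 0.733, and it was -0.62 without Yorkshire 5.

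The members varied more between libraries than most genes. The biological coefficient of variation fitted by edgeR was 0.793 for MUSK, 0.577 for CHRNE, 0.551 for ACHE, 0.448 for CHRNA1 and 0.424 for LRP4, each above at least 92.1% of the tested genes. It was 0.291 for CHRNB1, at percentile 74.9, and 0.209 for the row described as docking protein 7, at percentile 45.1, against a median of 0.219. These percentiles do not allow for level, and apart from CHRNB1 the tested members were below the median level of tested genes, 3.77 FPKM.

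The same libraries stood at the ends of the range for several members. Yorkshire 3 and Yorkshire 5 were each among the 3 highest libraries for 7 of 8 members, and Laiwu 5 for 4. For CHRNA1, CHRNB1 and MUSK the 3 highest libraries were exactly Laiwu 5, Yorkshire 3 and Yorkshire 5. Laiwu 3 was the lowest library, or tied with others at 0, for 6 of 8 members, the exceptions being MUSK and CHRNB1. Laiwu 3 also had the highest summed level of the adipocyte markers, at 188.2 FPKM. Laiwu 6 was next, at 160.6 FPKM, and was the highest library for 1 of 8 members, LRP4, and tied for the lowest at 0 for 1, COLQ. All 7 of 7 adipocyte markers were found, none was at 0 in any library, and their sum was 56.8 to 188.2 FPKM in Laiwu and 47.9 to 88.7 FPKM in Yorkshire. The part of this in the low values of Laiwu 3 was not tested. In bulk muscle, fewer junctions, fewer nuclei under them and less RNA per nucleus cannot be told apart.

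**Figure D4:**
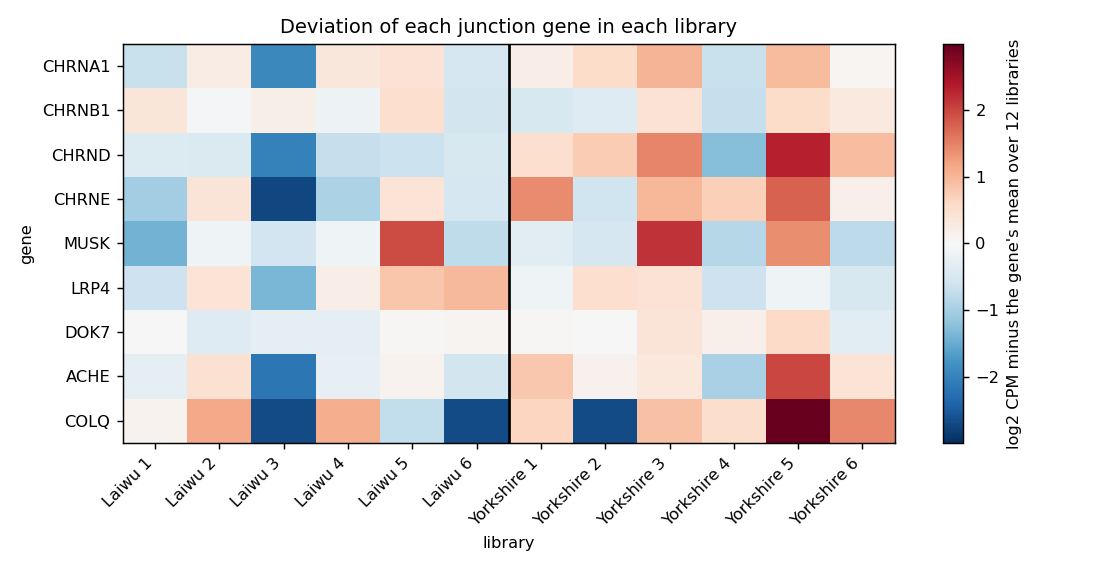
Log2 CPM, counts scaled to the library total adjusted by its TMM factor, of each gene in each library minus the gene's mean over the 12 libraries. Red is above and blue below the mean, with a line between the 6 Laiwu and 6 Yorkshire libraries. Laiwu 3 is low for most genes except CHRNB1, MUSK and DOK7, Yorkshire 3 and Yorkshire 5 are high for most, and MUSK is high in Laiwu 5 as well.

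As a description, log2 CPM (counts scaled to the library total adjusted by its TMM factor) was centred within each breed. Over the 12 libraries it correlated between members at a median Pearson's r of 0.52 over 15 pairs of tested members, 14 of them above 0. The closest pair was CHRNA1 with ACHE, at 0.81, and the only pair below 0 was CHRNB1 with LRP4, at -0.11. CHRNA1 with CHRNE stood at 0.66 and at 0.34 without Laiwu 3. Among 9956 tested genes with a symbol, the closest in this measure were FHOD1 for CHRNB1 (0.97), DNAJA4 for MUSK (0.97), ZNF366 for LRP4 (0.94), DEPDC7 for CHRNE (0.93), FAM89B for ACHE (0.91) and RBM14 for CHRNA1 (0.91). Each is the highest of many values over few libraries that share their depth and scaling.

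DNAJA4, which encodes a heat shock protein 40 family co-chaperone, was at 42.5 FPKM in Laiwu 5 and 4.26 to 8.00 FPKM in the other Laiwu libraries, and at 56.6 FPKM in Yorkshire 3, 39.7 FPKM in Yorkshire 5 and 5.06 to 6.28 FPKM in the other Yorkshire libraries. It was therefore high in the same 3 libraries as MUSK. Chosen after their values were seen, GADD45A and RUNX1, which rise in muscle that has lost its nerve in rodents, were high in those libraries too. GADD45A was at 27.3 FPKM in Laiwu 5, 63.0 in Yorkshire 3 and 39.4 in Yorkshire 5, and at 4.18 to 7.65 FPKM in the other 9. RUNX1 was at 3.20 FPKM in Laiwu 5, 6.46 in Yorkshire 3 and 2.74 in Yorkshire 5, and at 0.588 to 1.35 FPKM in the other 9. CHRNG, another gene of that response, had no count in Laiwu 5 and was at 0.271 FPKM in Yorkshire 3 and 0.449 FPKM in Yorkshire 5. MYOG, the myogenic factor that activates receptor genes in muscle without nerve, was at 18.0, 15.5 and 19.6 FPKM in these 3 libraries and at 6.87 to 16.1 FPKM in the others, so those ranges overlapped. The pattern was not shared by MYH3 and MYH8, also of that list. MYH3, an embryonic myosin heavy chain, had its lowest values of all 12 libraries in Yorkshire 5, at 24.1 FPKM, and Yorkshire 3, at 32.1 FPKM, and was at 75.9 FPKM in Laiwu 5. MYH8, a developmental myosin heavy chain, was at 115.3 FPKM in Laiwu 5, 74.9 FPKM in Yorkshire 3 and 77.8 FPKM in Yorkshire 5, within the range of 63.7 to 203.0 FPKM of the others.

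Slow and fast fibres differ in their junctions, so the members were also tested for a slope on a slow fibre score, the mean centred log2 CPM of 12 slow fibre genes such as MYH7, with breed in the model. The score ran from -1.43 to 0.48 in Laiwu and from -0.63 to 0.98 in Yorkshire. All 6 tested members had a fitted slope above 0, with a median of 0.30, where 5768 of 11193 genes did and the median was 0.006. None of the 6 passed the test, which called 68 of 11193 genes (0.608%), 18 of them rising with the score (0.161%) and 50 falling (0.447%). CHRNE had a slope of 0.86 ± 0.30 log2 units per unit of score (SE), with an edgeR adjusted p of 0.343. Without Laiwu 3, the library with the lowest CHRNE level, the CHRNE slope was 0.96 ± 0.18 and passed, with an edgeR adjusted p of 0.0349. That fit called 62 of 11193 genes. With any other library left out CHRNE did not pass, at an edgeR adjusted p of 0.273 to 0.834. MUSK had a slope of 1.11 ± 0.46, with an adjusted p of 0.462, and 0.65 without Laiwu 5. ACHE had one of 0.42 ± 0.33, and 0.13 without Yorkshire 5. LRP4 had one of 0.18 ± 0.28, and -0.035 without Laiwu 1. CHRNA1 had one of 0.15 ± 0.28, and 0.032 without Laiwu 5. CHRNB1 had one of 0.13 ± 0.18, and 0.037 without Yorkshire 5. The number of genes called rested on single libraries, at 5 without Yorkshire 2, 12 without Laiwu 4, 19 without Yorkshire 5, 23 without Laiwu 5, 39 without Laiwu 6, 40 without Yorkshire 4 and 136 without Laiwu 1, and with MYH7 alone as the score it was 4.

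**Figure D5:**
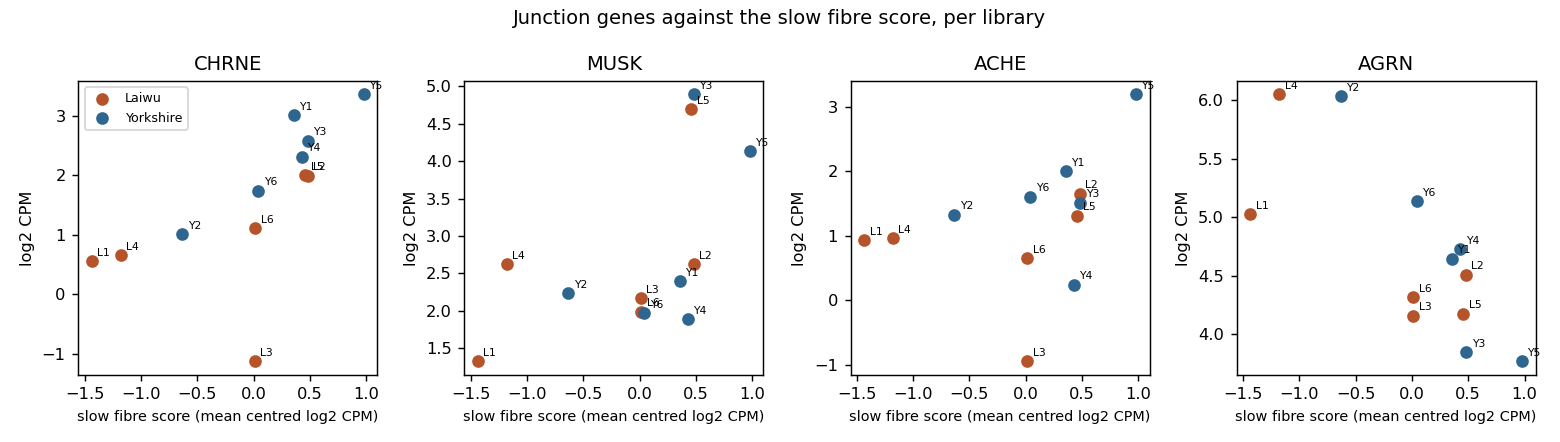
Log2 CPM of CHRNE, MUSK, ACHE and AGRN against the slow fibre score, 1 point per library (L for Laiwu, Y for Yorkshire, with the library number). CHRNE climbs with the score except in Laiwu 3, MUSK is high in 3 libraries with scores above 0, and AGRN is highest in Laiwu 4 and Yorkshire 2, which have low scores.

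Of 47 other genes of the junction listed with the members, 41 were found and 32 tested. Between the breeds the fitted fold change was above 0 for 17 of the 32 and below 0 for 15, with a median of 0.02. Of the 32, 0 passed the edgeR test and 2 had an unadjusted p under 0.05. That share is close to the one over all tested genes, 498 of 11205 (4.44%). Those 2, named after their values were seen, were ETV5, an ETS factor tied to transcription under the synapse in mice, and LAMA4, a laminin chain. ETV5 was at 1.12 ± 0.309 FPKM in Laiwu against 2.01 ± 1.02 FPKM in Yorkshire (SD over 6 libraries), a log2 fold change of -0.87 ± 0.37 (SE), and LAMA4 at 7.14 ± 0.969 FPKM in Laiwu against 5.61 ± 1.16 FPKM in Yorkshire, one of 0.33 ± 0.13, each with an edgeR adjusted p of 0.912. Among the most abundant were PLEC, the linker protein plectin, CAV3, the caveolin of muscle, and SCN4A, the sodium channel of the fibre membrane. They averaged 86.0, 48.7 and 41.7 FPKM in Laiwu and 81.4, 53.3 and 42.0 FPKM in Yorkshire, in that order. Their edgeR adjusted p ran from 0.918 for CAV3 to 0.984 for SCN4A.

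On the slow fibre score 22 of the 32 had a slope above 0 and 10 below, and 1 passed, AGRN, which fell with the score. AGRN encodes agrin, the proteoglycan that in its nerve form starts receptor clustering through LRP4 and that other cells also make. It was at 8.12 FPKM in Laiwu 4 and 2.27 to 3.80 FPKM in the other Laiwu libraries, and at 7.54 FPKM in Yorkshire 2 and 1.56 to 4.06 FPKM in the other Yorkshire libraries. The breeds averaged 3.63 ± 2.27 FPKM in Laiwu against 3.60 ± 2.14 FPKM in Yorkshire (SD over 6 libraries). The slope was -0.99 ± 0.18 (SE), with an edgeR adjusted p of 0.0273. It was no longer called without Laiwu 4 (adjusted p = 0.188), Yorkshire 2 (0.186), Yorkshire 5 (0.0825), Laiwu 5 (0.0801) or Laiwu 6 (0.0543) by edgeR, and stayed between -0.82 and -1.25 with each library left out.

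Of 14 genes of the response to loss of the nerve, 13 were found and 10 tested, with 3 fitted fold changes above 0, 7 below, a median of -0.16 and 0 past the test. At an unadjusted p under 0.05 by edgeR stood 1 of the 10, against 498 of 11205 tested genes (4.44%). That gene was MYH3, named after its values were seen, at 69.7 to 99.8 FPKM in Laiwu against 24.1 to 73.5 FPKM in Yorkshire. Its log2 fold change was 0.59 ± 0.25 (SE), with an edgeR adjusted p of 0.912. The 2 of highest level were SLN, which encodes the calcium pump inhibitor sarcolipin, at 2457 ± 340.4 FPKM in Laiwu against 2471 ± 425.5 FPKM in Yorkshire (SD over 6 libraries), and MYH8, at 127.6 ± 48.3 FPKM in Laiwu against 97.9 ± 40.1 FPKM in Yorkshire. MYH3 and MYH8 have close copies in the same gene family, so their share of reads is uncertain. MYOG averaged 12.4 ± 4.14 FPKM in Laiwu against 14.5 ± 3.64 FPKM in Yorkshire.

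Of 11 nerve and Schwann cell markers 9 were found, and their summed level was 15.3 to 26.1 FPKM in Laiwu and 12.5 to 26.6 FPKM in Yorkshire. Named for their zeros, SOX10, CDH19, NEFL and PRPH were among those with no count in at least 1 library. The 3 tested markers had log2 fold changes between -0.37 and 0.004 and 0 passed. The highest were PMP22, at 12.9 ± 0.980 FPKM in Laiwu against 12.8 ± 3.56 FPKM in Yorkshire, and MBP, at 3.49 ± 1.39 FPKM in Laiwu against 3.39 ± 1.57 FPKM in Yorkshire (SD over 6 libraries), both genes of myelin. Laiwu 3, the library lowest for most members, had a summed level of 16.5 FPKM, inside the range of the others, and the part of nerve content in the members' levels was not tested.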

How the data were processed

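Poly(A) RNA was sequenced on an Illumina NovaSeq. Reads were checked with FastQC and aligned with HISAT2 2.2.1 to Sscrofa11.1, per the series' design text. Cutadapt 1.9, StringTie 1.3.4d, DESeq2 and edgeR are named without a role, per the submitters' processing notes. The sources used here give neither the annotation release nor any filter or strand setting. The authors deposited whole counts per gene and library, and FPKM values scaled by length and total count, per the file headers.

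The members and gene lists were chosen with earlier results of these data known. Members were matched by gene symbol. The 11205 genes at a mean of 0.5 FPKM or more were tested across all genes with edgeR 4.0.16 (TMM, robust quasi-likelihood, Benjamini-Hochberg adjusted p under 0.05), Laiwu minus Yorkshire, and 12066 were left out. The SE is the fold change over the root of its F statistic. A second model added the slow fibre score, and the 12 genes of that score are not counted among its calls. The scripts were tested on simulated data. Alternatives used limma 3.58.1 on log2(FPKM + 1) and with pseudocounts of 0.1 and 0.01, DESeq2 1.42.0, other scalings and filters, a replicate block and each library left out, in R 4.3.3, and figures Python 3.11.15. Intervals and limits for a count of 0 (3 counts) cover counting error only.

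The genes named were all members, genes of a list past the test or otherwise its most abundant 4 (junction list) or 2 (other lists), AGRN, CHRNG, MYOG and the closest gene to each tested member. Other genes named in the text were chosen after their values were seen, apart from the 2 that overlap CHRNE, chosen by position, and the markers found for skeletal muscle, taken from their list. Some genes of the lists are counted but not reported here by name. RAPSN and sequences of the members were not used here. Of the planned ratios, that with RAPSN was not computed, and those with libraries at 0 were not tested.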

Additional observations from a re-analysis of the deposited data

Results flagged for a closer look

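Dixon's test was run on the FPKM of 18 sets of 6 libraries (8 members and the row described as docking protein 7, in each breed). In 3 of them it flagged a library far from the others of its breed. Its nominal rate of about 1 in 20 holds for independent, normally distributed values. The sets share the same 12 libraries and several members moved together, so the 3 cannot be set against that rate. MUSK was at 3.16 FPKM in Laiwu 5, where the next Laiwu value was 0.731 FPKM. COLQ was at 0.449 FPKM in Yorkshire 5, where the next Yorkshire value was 0.143 FPKM. CHRND was at 0.07996 FPKM in Laiwu 3, where the next Laiwu value was 0.209 FPKM.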

How the results depend on the processing

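Between the breeds 0 genes were called in 22 of 23 alternatives by edgeR or limma, DESeq2 called 1, and with 1 library left out 284 to 656 genes had an unadjusted p under 0.05. No member was called between the breeds under any of them. CHRNA1, CHRND, CHRNE, ACHE, COLQ and LRP4 kept the sign of their fold change throughout. The log2 fold change of MUSK was 0.19 with the slow fibre score as a covariate and ran from -1.22 to 0.23 with 1 library left out, and that of CHRNB1 from -0.054 to 0.19. The number of genes with a slope on the score was 4 with MYH7 alone as the score, 123 with a replicate block and 5 to 136 with 1 library left out. Slopes that turned negative were those of COLQ with MYH7 alone (-0.19), and with the replicate block those of CHRNA1 (-0.17), CHRNB1 (-0.27), CHRND (-0.43), COLQ (-0.065) and the row described as docking protein 7 (-0.0086). The block also lowered the slopes of MUSK to 0.19 ± 0.51, ACHE to 0.087 ± 0.46 and LRP4 to 0.027 ± 0.44 (SE). With 1 library left out the slope ran from -0.035 to 0.43 for LRP4, from -0.23 to 0.80 for COLQ and from -0.084 to 0.45 for CHRND. With 1 library left out the breed difference in log2 ratio to CHRNA1 ran from -1.11 to -0.60 for CHRNE, from -1.16 to -0.74 for CHRND and from 0.45 to 0.96 for CHRNB1. The members' median fold change was -0.19 with the score as a covariate and -0.26 by limma on log2(FPKM + 1). The cause of these changes was not tested. The labels do not say that a number pairs libraries, and deviations of same-numbered libraries correlated at -0.27 to 0.33, so the replicate block, under which 0 genes were called between the breeds, was no main result. Depth limits COLQ and CHRND most, at 0 to 93 and 14 to 283 counts.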
